A study of Homo sapiens with 6 samples.

Results

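Histone genes were read in the RNA of LNCaP, an established human prostate cancer cell line, with and without a hairpin against RB. A row of the deposited count table was taken as a histone gene when its transcript ID maps, in GENCODE release 29, to a symbol beginning HIST1H, HIST2H, HIST3H, HIST4H, H1F, H2AF or H3F. The rule found 42 genes among 22279 rows, of which 29 are replication-dependent genes (the HIST symbols) and 13 are variant genes (the H1F, H2AF and H3F symbols). No measured value entered the rule. There were 3 libraries of shRB cells, in which the hairpin targets the tumour suppressor RB, and 3 libraries of shCON cells, which carry a control hairpin. Both groups were LNCaP cells harvested after 72 h of CDT, which the labels enter as an agent of cell cycle arrest, and the series text describes these conditions as hormone deficient. The labels name 1 hairpin label per group, so RB loss and the particular hairpin or cell population cannot be told apart. Whether the 3 libraries of each group came from different cultures is not stated, and the p-values therefore reflect only the spread between these libraries, which may be technical.

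Replication-dependent histone genes lie in clusters, are transcribed mainly in S phase, and supply the core histones H2A, H2B, H3 and H4 and the linker histone H1 that package newly made DNA. Their mRNAs typically end in a conserved stem-loop, bound by SLBP, in place of a poly(A) tail. Some of these genes also make polyadenylated forms, in particular in cells that have left the cycle. Variant histone genes are mostly single genes that make polyadenylated mRNAs. Many, though not all, are expressed through the cycle and encode proteins that can be placed in chromatin outside replication. The libraries were made with the TruSeq RNA kit v2, per the labels, a kit that selects polyadenylated RNA with oligo-dT, so an mRNA that ends in the stem-loop is captured poorly or not at all.

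RB1 itself, the gene the shRB hairpin is directed at, stood at 5.82, 3.82 and 5.41 CPM (counts-per-million, the count scaled to the TMM-normalized library total) in shRB cells, against 56.5, 52.7 and 54.7 CPM in shCON cells, a log2 fold change of -3.43 ± 0.13 (SE, edgeR adjusted p = 2.4e-09). Library totals were 9780579 to 10898768 counts in shRB and 6115310 to 20091488 counts in shCON. Library shRB 2 stood apart from the other shRB libraries on the second principal component, at -21.8 against 12 and 12.4, and deviations from the group mean ran with transcript GC content in most libraries. The Spearman rho across genes, which are not independent replicates, was -0.50, 0.69 and -0.54 in shRB 1 to 3 and -0.51, 0.52 and -0.09 in shCON 1 to 3. All 8 luminal prostate markers were expressed, with summed levels of 3893 to 4352 CPM in shRB and 4009 to 4303 CPM in shCON. Of the markers of other cell types, none of the 3 basal, 3 leukocyte and 2 endothelial genes reached the level needed for testing, with KRT5, PTPRC, CD3E, PECAM1 and CDH5 at 0. Among the stromal markers 1 of 3 was tested, COL1A2 was at 0, and the sum was 11.7 to 15.3 CPM in shRB and 16.4 to 19.4 CPM in shCON.

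Of the 42 histone genes, 22 were too low to test and 20 were tested. A gene was tested when it passed edgeR's filter for expressed genes, which here asks for at least 0.99 CPM in at least 3 libraries. By kind, 9 of the 29 replication-dependent genes passed, and so did 11 of the 13 variant genes. The 22 low genes were 20 replication-dependent genes and the variants H1FNT and H1FOO, the linker histones of spermatids and oocytes. Their highest count in any library was 9, and all 22 together held 65 counts in the 3 shRB libraries and 96 counts in the 3 shCON libraries, or 2.11 CPM in shRB and 2.63 CPM in shCON. A count of 0 in all 6 libraries was found for 9 of them, including HIST1H4B, HIST1H4F and the testis genes HIST1H2BA and HIST3H3. Such a 0 allows up to 3 counts in 67094143, or 0.0447 CPM, for counting error only.

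**Figure D1:**
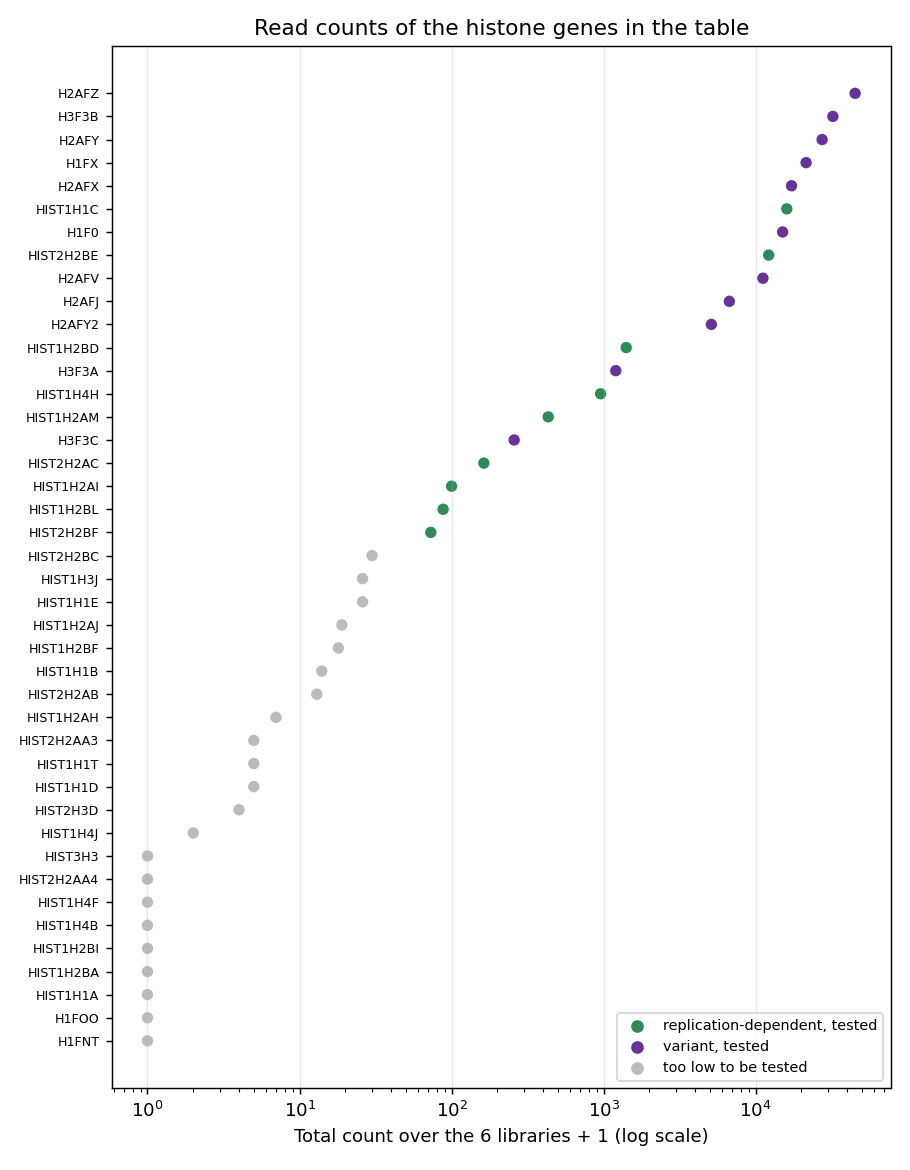
Total read count over the 6 libraries plus 1 (log x axis) for each of the 42 histone genes, coloured by kind where tested and grey where too low. The 22 grey genes lie at totals of 29 or less, and H2AFZ is the highest at 45071.

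The most abundant of the untested genes show how shallow the record is. HIST2H2BC, which the annotation types as a transcribed pseudogene and which shares 79.7% of its 50-base stretches with other genes, had 4, 4 and 4 counts in shRB cells and 8, 6 and 3 in shCON cells. The linker histone gene HIST1H1E had 2, 6 and 4 counts in shRB and 8, 3 and 2 in shCON. The H3 gene HIST1H3J had 1, 2 and 2 counts in shRB and 9, 5 and 6 in shCON. These counts are not scaled, and shCON 1 was the deepest library. The H2A gene HIST1H2AJ had 5, 0 and 3 counts in shRB and 4, 4 and 2 in shCON. The H2B gene HIST1H2BF had 3, 1 and 1 counts in shRB and 7, 4 and 1 in shCON. No H3 gene of the replication-dependent kind was tested, so what follows says nothing about canonical H3, and a single gene stands for canonical H4.

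The transcript models themselves show the 2 kinds of mRNA end. The histone stem-loop was found in the listed transcript of 7 replication-dependent genes and of 0 variant genes, while a poly(A) signal (AATAAA or ATTAAA in the last 50 bases) was found in 10 of the 11 tested variants. The listed models of 10 of the 20 untested replication-dependent genes, and of 3 of the 9 tested ones (HIST1H1C, HIST1H2AM and HIST2H2AC), hold the coding sequence only and cannot show either end. The stem-loops of 3 tested genes and 1 untested one are shown because their surroundings differ, with the stem-loop in capitals and the transcript's bases on either side in lower case (GENCODE release 29, 5′ to 3′).
HIST2H2BE: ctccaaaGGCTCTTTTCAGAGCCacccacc
HIST1H2AI: aaccaaaGGCTCTTTTCAGAGCCacctaca
HIST1H2BL: acccaaaGGCTCTTTTCAGAGCCactcact
HIST1H2BF: tcccaaaGGCTCTTTTAAGAGCCacccact
In HIST1H2AI and HIST1H2BL the model runs on for only 39 and 40 bases past the stem-loop. The HIST1H2BF model runs on for 732 bases with no poly(A) signal in the last 50 bases, and that gene held 17 counts in all. The HIST2H2BE model runs on for 1729 bases and ends at a poly(A) signal. HIST1H2BD, the other H2B gene read at depth, has no match to the stem-loop pattern in its listed model, which has 2 exons and ends at a poly(A) signal. The ends of these 2 polyadenylated H2B models are shown beside those of the variants H2AFZ and H2AFJ, with the signal in capitals.
HIST2H2BE: tattgttattAATAAAgttaccaattaatt
HIST1H2BD: agttataattAATAAAatctgcggagaatt
H2AFZ: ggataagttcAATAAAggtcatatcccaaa
H2AFJ: aaaagtaatgATTAAAgcttgtgaatctga
The 2 H2B genes whose models end at a poly(A) signal stood higher, HIST2H2BE at an average of 153 CPM in shRB and 207 CPM in shCON and HIST1H2BD at 13.5 CPM in shRB and 26.9 CPM in shCON, and the 2 tested genes whose models end just past the stem-loop averaged under 2 CPM in either group. The listed ends did not sort the genes by level throughout. HIST2H2AA3, HIST2H2AA4 and HIST1H4J also have a poly(A) signal in the last 50 bases and held 4, 0 and 1 counts in all. HIST1H4H has neither that signal nor a match to the stem-loop pattern in its model. It averaged 10.2 CPM in shRB and 17.8 CPM in shCON.

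Among the 20 tested histone genes, 5 were higher in shRB than in shCON, 6 were lower, and 9 did not pass an adjusted p of 0.05. Across all 11712 tested genes 25.3% passed, 12.8% as higher and 12.5% as lower, and the median log2 fold change was -0.01. By kind, of the 9 tested replication-dependent genes 0 were higher and 4 were lower, HIST1H2AM, HIST1H2BD, HIST2H2BE and HIST1H4H, with a median of -0.62, and of -0.46 over the 6 that met the filter in every library. Of the 11 tested variants 5 were higher, H1FX, H2AFX, H2AFY, H2AFY2 and H2AFZ, and 2 were lower, H2AFJ and H3F3B, with a median of 0.20. The 3 shRB values lay wholly above or wholly below the 3 shCON values for 19 of the 20, where 41.1% of all tested genes did so, HIST1H2BL being the exception. The filter was met in all 6 libraries by 17 of the 20. HIST1H2AI, HIST1H2BL and HIST2H2BF met it in all 3 shCON libraries but not in all shRB libraries, so that their passing already favours a lower shRB level. In bulk RNA, fewer cells in a given state and less of an mRNA per cell cannot be told apart.

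**Figure D2:**
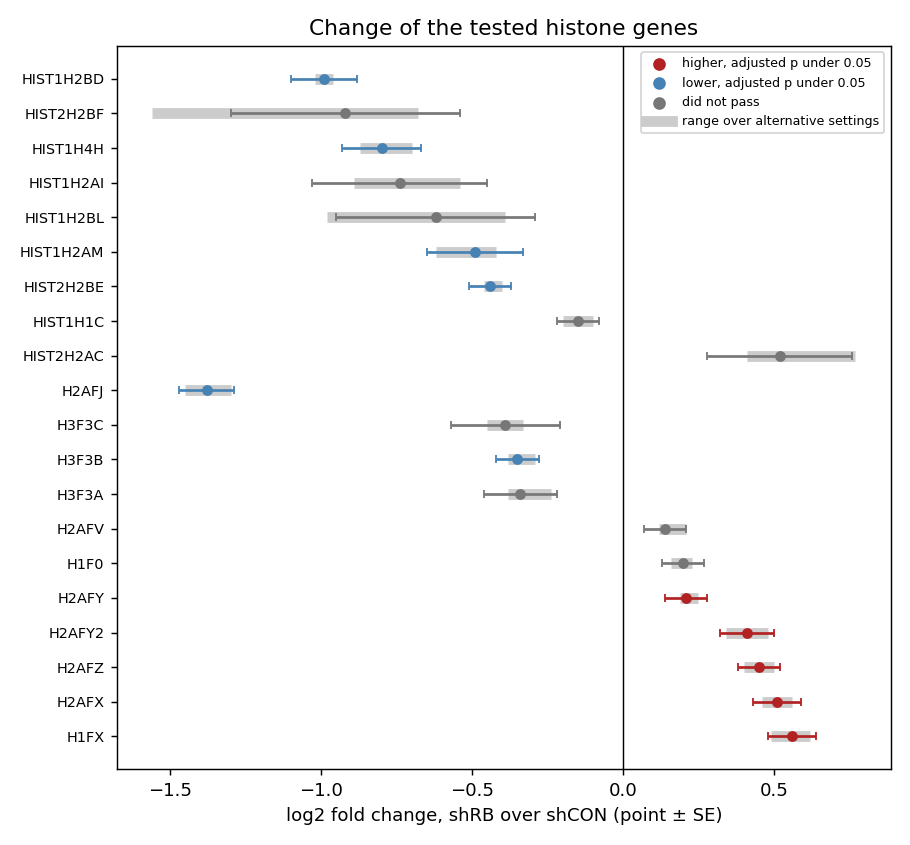
Log2 fold change of shRB over shCON (x axis) for the 20 tested histone genes, with thin bars of 1 SE, grey bands for the range over the alternative settings, and colours for higher, lower and not passing. H2AFJ lies farthest to the left at -1.38 and H1FX is the highest called gene at 0.56.

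In the poly(A)-selected RNA read here, genes of canonical H2B and H4 held the clearest falls among the tested replication-dependent genes. Their mRNA that ends in the stem-loop is captured poorly or not at all, so these falls do not describe it. HIST1H2BD, an H2B gene of the large cluster on chromosome 6, stood at 13.1, 13.8 and 13.7 CPM in shRB cells and 27.7, 26.5 and 26.4 CPM in shCON cells, a log2 fold change of -0.99 ± 0.11 (edgeR adjusted p = 1.8e-05). Every shRB library was near the same level, and the fall was 1.99-fold. HIST1H4H, the only canonical H4 gene tested, stood at 8.73, 11.2 and 10.6 CPM in shRB and 17.1, 18.5 and 17.8 CPM in shCON (log2 fold change -0.80 ± 0.13, edgeR adjusted p = 0.00057). HIST2H2BE, an H2B gene of the cluster on chromosome 1, stood at 153, 154 and 151 CPM in shRB and 199, 215 and 206 CPM in shCON (log2 fold change -0.44 ± 0.07, edgeR adjusted p = 0.00049). For all 3 genes the groups were separate, with gaps wider than the spread inside either group. The other 2 tested H2B genes were close to the detection limit. HIST2H2BF stood at 1.18, 0.424 and 0.483 CPM in shRB and 1.47, 1.20 and 1.31 CPM in shCON, with a log2 fold change of -0.92 ± 0.38 that did not pass (edgeR adjusted p = 0.092). HIST1H2BL stood at 0.910, 0.636 and 1.45 CPM in shRB and 1.37, 1.61 and 1.96 CPM in shCON, with overlapping groups (log2 fold change -0.62 ± 0.33, edgeR adjusted p = 0.19). In HIST2H2BF, 63.5% of the 50-base stretches of the transcript also occur in other genes, so its counts are uncertain, and without shRB 1 its log2 fold change was -1.56 and passed (edgeR adjusted p = 0.021).

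**Figure D3:**
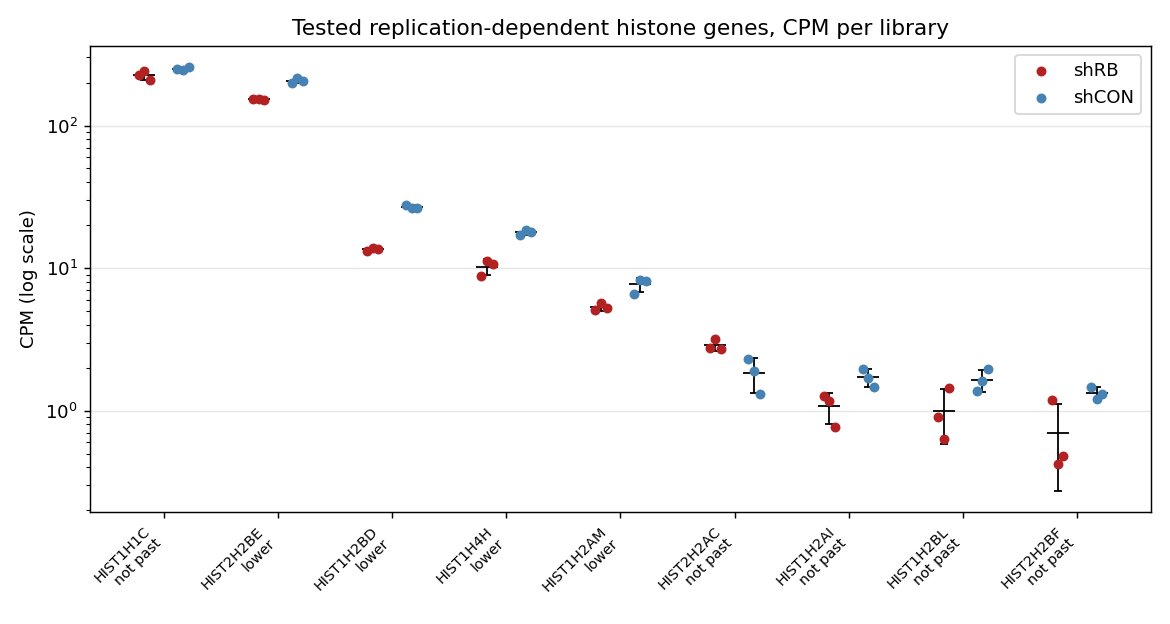
CPM (log axis) of the 9 tested replication-dependent genes in each library, shRB left and shCON right of each pair, with lines at group means and bars of 1 SD. HIST1H2BD and HIST1H4H show shRB points well below the shCON points, and HIST2H2AC alone has shRB above shCON.

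Canonical H2A was read thinly. HIST1H2AM stood at 5.09, 5.72 and 5.21 CPM in shRB cells and 6.62, 8.23 and 8.16 CPM in shCON cells, with a log2 fold change of -0.49 ± 0.16 (edgeR adjusted p = 0.039). The groups did not overlap, but the call was lost under DESeq2 and limma-voom and without shRB 1, shRB 3, shCON 2 or shCON 3, where adjusted p reached 0.15. The HIST1H2AM transcript shares 86.3% of its 50-base stretches with other genes, above all HIST1H3J, whose exon overlaps it on the same strand, so its reads may belong in part to that gene. HIST1H2AI stood at 1.27, 1.17 and 0.772 CPM in shRB and 1.96, 1.71 and 1.47 CPM in shCON (log2 fold change -0.74 ± 0.29, edgeR adjusted p = 0.078), and with an offset for transcript GC content it was at -0.76 and passed (edgeR adjusted p = 0.047). In HIST1H2AI 62.3% of the 50-base stretches occur in other genes, and in HIST2H2AC 30.5% do. HIST2H2AC had the opposite sign, with 2.73, 3.18 and 2.70 CPM in shRB and 2.31, 1.91 and 1.31 CPM in shCON (log2 fold change 0.52 ± 0.24, edgeR adjusted p = 0.12). HIST1H2AI and HIST2H2AC did not pass although their groups were separate, at counts of 8 to 47 per library.

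Summed over the 29 genes with a row, replication-dependent histone RNA stood at 415, 432 and 396 CPM in shRB cells and 509, 523 and 524 CPM in shCON cells. The ratio was 0.799, and most of the sum was HIST1H1C and HIST2H2BE. HIST1H1C averaged 225 CPM in shRB and 250 CPM in shCON, and HIST2H2BE averaged 153 CPM in shRB and 207 CPM in shCON. Variant histone RNA stood at 2888, 3040 and 2824 CPM in shRB and 2528, 2545 and 2635 CPM in shCON, a ratio of 1.14. The groups did not overlap in either sum, with every shRB library below shCON in the replication-dependent sum and above it in the variant sum. Canonical H2B averaged 168 ± 1.01 CPM in shRB and 237 ± 7.28 CPM in shCON (SD, n = 3 each), most of it HIST2H2BE. Variant H2A averaged 1851 ± 81.9 CPM in shRB and 1540 ± 42.0 CPM in shCON, variant H1 averaged 633 ± 35.0 CPM in shRB and 476 ± 21.0 CPM in shCON, and variant H3 averaged 434 ± 7.82 CPM in shRB and 554 ± 8.33 CPM in shCON. These sums weight each gene by its level and by how much of its RNA is polyadenylated, so they are not the amounts of histone made. Histone genes of GENCODE without a matched row, such as HIST1H2AC and HIST1H2BC, are not in the sums.

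Among the linker histones the balance between genes differed between the groups. H1FX, a replication-independent linker histone, stood at 379, 434 and 363 CPM in shRB cells and 247, 269 and 281 CPM in shCON cells, a log2 fold change of 0.56 ± 0.08 (edgeR adjusted p = 3e-04). H1F0, the linker histone that accumulates in differentiated and resting cells, stood at 255, 233 and 234 CPM in shRB and 206, 211 and 213 CPM in shCON (log2 fold change 0.20 ± 0.07, edgeR adjusted p = 0.052). HIST1H1C, the replication-dependent linker histone H1.2 and the only one of its kind read at depth, stood at 226, 241 and 208 CPM in shRB and 249, 246 and 257 CPM in shCON (log2 fold change -0.15 ± 0.07, edgeR adjusted p = 0.15). All 3 had separate groups, but only H1FX passed. Both others passed with the GC offset, and without shRB 2 they passed too, H1F0 at 0.23 (edgeR adjusted p = 0.0036) and HIST1H1C at -0.20 (edgeR adjusted p = 0.016). Per kilobase of the listed transcript, HIST1H1C made up 49.1 ± 0.336% of H1 RNA in shRB and 59.4 ± 0.975% in shCON (SD, n = 3 each). H1FX made up 36.4 ± 1.27% in shRB and 26.8 ± 1.07% in shCON, and H1F0 14.4 ± 1.23% in shRB and 13.6 ± 0.204% in shCON. The HIST1H1C share is set on a coding-only model, and the shares depend on how reads outside that model were counted, which was not tested. An antisense gene, H1FX-AS1, overlaps an exon of H1FX, and reads from the 2 strands cannot be told apart since the use of strand is not given in the sources used here.

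**Figure D4:**
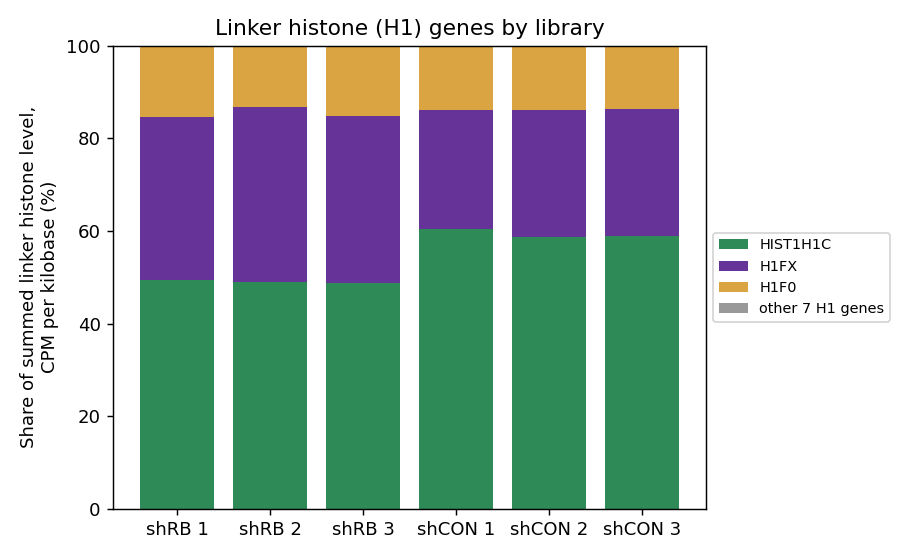
Share of H1 RNA, in percent of the summed CPM per kilobase, in each library, shRB libraries left and shCON right. HIST1H1C, H1FX and H1F0 are drawn singly and the other linker histone genes are pooled. HIST1H1C holds 49.1% on average in shRB and 59.4% in shCON, and H1FX holds 36.4% in shRB and 26.8% in shCON.

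The H2A variants held most of the rises and the largest fall. H2AFZ, which encodes H2A.Z, a variant placed at promoters and enhancers, had the highest CPM of the tested histone genes in these poly(A)-selected libraries and stood at 762, 846 and 744 CPM in shRB cells and 583, 551 and 591 CPM in shCON cells (log2 fold change 0.45 ± 0.07, edgeR adjusted p = 0.00075). Its paralog H2AFV, which encodes another H2A.Z protein, stood at 171, 183 and 174 CPM in shRB and 154, 158 and 167 CPM in shCON, with a log2 fold change of 0.14 ± 0.07 that did not pass (edgeR adjusted p = 0.16). With an offset for GC content H2AFV was at 0.21 and passed (edgeR adjusted p = 0.021). The per-kilobase ratio of H2AFZ to H2AFV was 17.3 ± 0.713 in shRB and 14.0 ± 0.627 in shCON (SD, n = 3 each), with no overlap. H2AFX, the variant phosphorylated around DNA breaks, stood at 304, 331 and 288 CPM in shRB and 206, 219 and 224 CPM in shCON (log2 fold change 0.51 ± 0.08, edgeR adjusted p = 3e-04).

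The macroH2A genes, whose products carry a large extra domain and mark repressed chromatin, also rose. H2AFY2 stood at 86.2, 98.5 and 79.8 CPM in shRB cells and 64.7, 69.7 and 64.1 CPM in shCON cells (log2 fold change 0.41 ± 0.09, edgeR adjusted p = 0.0048). H2AFY stood at 449, 423 and 448 CPM in shRB and 374, 376 and 392 CPM in shCON (log2 fold change 0.21 ± 0.07, edgeR adjusted p = 0.037). The rise of H2AFY was small, and its call was lost with upper-quartile normalization, with no filter, and without any 1 of shRB 1, shRB 3, shCON 1, shCON 2 or shCON 3, where adjusted p reached 0.16. Antisense genes, C5orf66 and AC026691.1, overlap exons of H2AFY, which shares 23.2% of its 50-base stretches with them, so its reads are uncertain in the same way as those of H1FX. Library shRB 2 was the highest shRB library for H2AFZ, H2AFX, H2AFY2 and H1FX and the lowest for H2AFY. Without it H2AFZ, H2AFX, H2AFY2 and H1FX stayed called and higher. The models of H1FX and H2AFX are GC-rich, at 68.6% and 66.4%, and with an offset for GC content their log2 fold changes were 0.57 and 0.52.

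H2AFJ moved against the other H2A variants and had the largest change of any tested histone gene. The gene encodes H2A.J, a variant known to build up in senescent human fibroblasts. It stood at 52.9, 61.3 and 49.7 CPM in shRB cells and 131, 146 and 150 CPM in shCON cells, which is 38.5% of the shCON level or 2.60-fold lower (log2 fold change -1.38 ± 0.09, edgeR adjusted p = 2.9e-07). The highest shRB library was well under the lowest shCON library, and across 18 other settings the log2 fold change ran only between -1.45 and -1.30. The listed H2AFJ transcript is a form that the annotation types as subject to nonsense-mediated decay, and the sources used here do not show which H2AFJ isoform the reads came from. None of its 50-base stretches occurs in another gene.

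The 3 H3 variant genes had log2 fold changes of similar size. H3F3B, which with H3F3A encodes the same replication-independent H3.3 protein, stood at 410, 412 and 423 CPM in shRB cells and 537, 523 and 530 CPM in shCON cells (log2 fold change -0.35 ± 0.07, edgeR adjusted p = 0.0017). H3F3A stood at 14.3, 15.7 and 16.1 CPM in shRB and 21.4, 18.4 and 17.8 CPM in shCON (log2 fold change -0.34 ± 0.12, edgeR adjusted p = 0.052). H3F3C, a primate-specific relative, stood at 3.37, 3.18 and 3.28 CPM in shRB and 4.12, 4.22 and 4.90 CPM in shCON (log2 fold change -0.39 ± 0.18, edgeR adjusted p = 0.13). Groups were separate for all 3 and the sign was the same, but only H3F3B passed, and H3F3A passed in 8 of 18 other settings, among them limma-voom, the GC offset and without shRB 2, at -0.36 in that last one (edgeR adjusted p = 0.018). Per kilobase, H3F3B exceeded H3F3A by 10.9 ± 0.573 times in shRB and 11.2 ± 0.981 times in shCON (SD, n = 3 each), so the ratio did not shift beyond its spread. H3F3A shares 34.8% of its 50-base stretches with other genes, among them processed pseudogenes, so its level is uncertain. H3F3C shares 21.8% of its 50-base stretches with the far more abundant H3F3B, so H3F3C counts may belong in part to that gene.

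**Figure D5:**
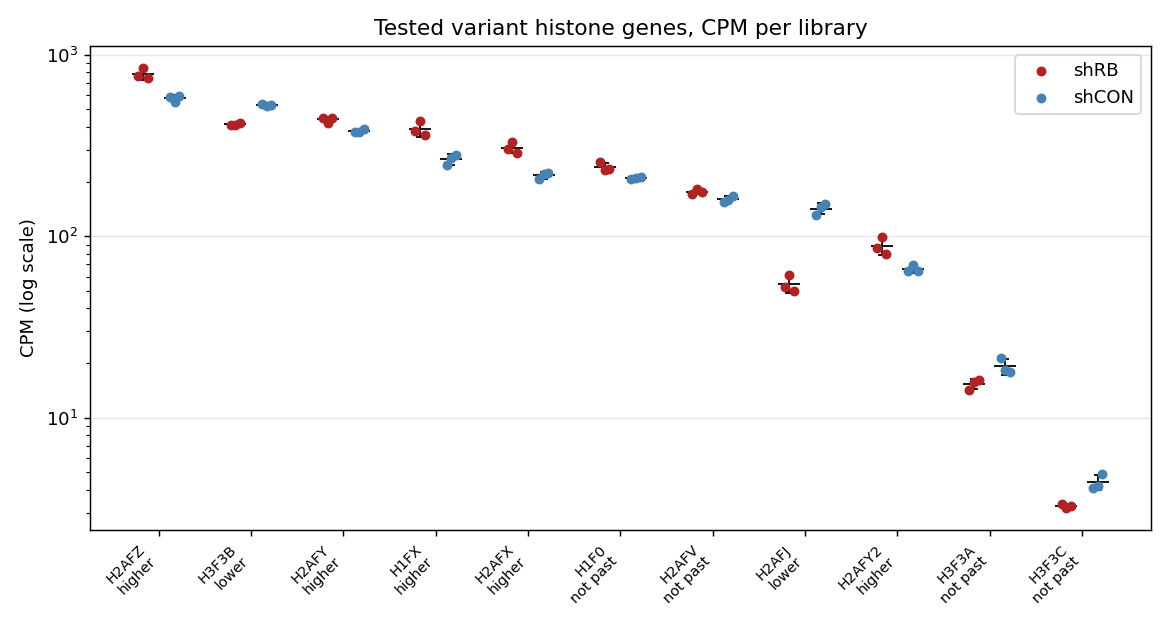
CPM (log axis) of the 11 tested variant histone genes in each library, shRB left and shCON right of each pair, with lines at group means and bars of 1 SD. H2AFJ shows the widest gap, 54.6 CPM on average in shRB and 142 CPM in shCON, and H2AFZ is the highest gene in both groups.

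On the scale of CPM per kilobase of the listed transcript, the highest values in shRB cells were H2AFZ (801), HIST1H1C (351), H1FX (260), H2AFX (191), H2AFY (158), H3F3B (153) and H1F0 (103). In shCON cells the same scale gave H2AFZ 588, HIST1H1C 390, H3F3B 196, H1FX 176, H2AFY 137, H2AFX 134 and H1F0 89.5. H3F3B stood above H1FX in shCON cells and below H1FX, H2AFX and H2AFY in shRB cells. In shRB the neighbours H2AFY and H3F3B, and in shCON the neighbours H2AFY and H2AFX, differed by less than their spread. HIST1H1C is listed for completeness, since its model is coding-only and the share of its RNA that carries a poly(A) tail is unknown, so its place among the variants is not a rank of amounts. Of the genes below them, not all are given. HIST2H2BE stood at 69.6 in shRB and 94.2 in shCON, and H2AFV at 46.3 in shRB and 42.0 in shCON. H2AFY2 stood at 44.5 in shRB and 33.4 in shCON, and HIST1H4H at 25.7 in shRB and 44.8 in shCON. H2AFJ stood at 17.6 in shRB and 45.7 in shCON, and HIST1H2BD at 17.1 in shRB and 34.1 in shCON. H3F3A stood at 14.1 in shRB and 17.6 in shCON.

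Promoter windows of RefSeq on GRCh38.p14, 250 bases before to 50 bases after the start, were matched for 35 of the 42 genes. HIST1H2AH, HIST1H2BF, HIST1H2BI, HIST2H2BC, HIST1H3J, H1F0 and H3F3C had no entry. The windows of 2 lower genes and 2 higher ones are shown, 5′ to 3′ on the strand of the gene. Capitals mark 4 motifs on either strand, which are the CCAAT box, the TATA box (TATAAA), the octamer (ATTTGCAT) and the core of the cell cycle homology region (TTTGAA).
HIST2H2BE (chr1:149886633-149886932, minus strand): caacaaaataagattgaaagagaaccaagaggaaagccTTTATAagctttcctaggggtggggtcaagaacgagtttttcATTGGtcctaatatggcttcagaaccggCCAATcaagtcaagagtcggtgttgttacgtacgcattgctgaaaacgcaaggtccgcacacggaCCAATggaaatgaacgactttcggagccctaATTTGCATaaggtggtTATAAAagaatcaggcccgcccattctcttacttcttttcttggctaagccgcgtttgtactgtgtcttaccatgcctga
H2AFJ (chr12:14774155-14774454, plus strand): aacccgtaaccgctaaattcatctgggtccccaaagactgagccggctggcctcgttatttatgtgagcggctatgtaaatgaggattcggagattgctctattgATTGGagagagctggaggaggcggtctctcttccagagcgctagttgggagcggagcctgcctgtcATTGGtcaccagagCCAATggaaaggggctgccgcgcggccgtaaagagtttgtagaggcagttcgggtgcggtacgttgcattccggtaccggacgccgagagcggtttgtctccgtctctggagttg
H2AFZ (chr4:99950226-99950525, minus strand): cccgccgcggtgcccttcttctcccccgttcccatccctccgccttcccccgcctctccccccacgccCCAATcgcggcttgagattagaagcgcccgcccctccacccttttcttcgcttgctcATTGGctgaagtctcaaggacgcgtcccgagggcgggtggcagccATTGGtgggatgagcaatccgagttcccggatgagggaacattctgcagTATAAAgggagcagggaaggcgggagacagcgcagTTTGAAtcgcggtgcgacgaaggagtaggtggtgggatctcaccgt
H2AFX (chr11:119095416-119095715, minus strand): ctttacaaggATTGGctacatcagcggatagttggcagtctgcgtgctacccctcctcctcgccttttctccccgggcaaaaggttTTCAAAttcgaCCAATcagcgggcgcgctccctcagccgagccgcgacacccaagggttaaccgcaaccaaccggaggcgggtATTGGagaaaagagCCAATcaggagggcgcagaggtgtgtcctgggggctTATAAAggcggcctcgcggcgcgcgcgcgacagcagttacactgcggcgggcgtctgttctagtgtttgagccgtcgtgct
All 4 windows hold CCAAT 3 or 4 times. Among the higher genes only H2AFZ and H2AFX do, since the windows of H1FX, H2AFY and H2AFY2 hold neither CCAAT nor TTTGAA. The window of HIST2H2BE also holds the octamer and TATAAA, the pair found in classical H2B promoters, while that of H2AFJ holds neither, and those of H2AFZ and H2AFX hold TTTGAA and TATAAA. These matches are descriptions, not sites or causes.

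Across all 35 windows, CCAAT was present in 29 histone promoters, where 35.7% of 27305 promoters hold it. TATAAA was present in 22, against 12% of all promoters, and the octamer in 8, against 1.8%. TTTGAA was present in 8, against 15.4%. An E2F sequence (TTTCCCGC or TTTCGCGC or TTTGCCGC or TTTGGCGC) was present in 6, against 3.3%. By direction, an E2F sequence was in 0 of the 5 higher genes and 1 of the 6 lower ones. The octamer was in 0 of the 5 higher genes and in 3 of the 6 lower ones, HIST1H2AM, HIST2H2BE and H3F3B. TTTGAA was in 2 of 5 higher and 1 of 6 lower genes. CCAAT was in 2 of 5 higher and 5 of 6 lower genes, and TATAAA in 3 of 5 higher and 4 of 6 lower genes. Motifs were searched on both strands, with 0 overlaps between matches to different motifs in these 35 windows, and the absence of a match says only that the letters are not in the window. Windows on opposite strands overlapped in 2 pairs, so matches in the shared bases were counted for both genes. Among them are the E2F sequence of HIST1H2AI and HIST1H2BL and the octamer of HIST2H2AC and HIST2H2BE. HIST2H2AC and HIST2H2BE share 265 bases and had opposite signs, at 0.52, which did not pass, and -0.44. HIST1H2AI and HIST1H2BL share 257 bases and stood at -0.74 and -0.62, neither of which passed.

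Genes next to the histone genes were read for comparison. Around the chromosome 6 cluster, the 10 nearest tested non-histone genes had a median log2 fold change of -0.01, with 1 higher and 1 lower, and the 12 non-histone genes between its members had a median of -0.04, with 2 higher and 0 lower. Around the chromosome 1 cluster, home of HIST2H2BE, the 10 nearest had a median of 0.24, with 5 higher and 0 lower. Around H2AFJ the median of 10 neighbours was -0.02. Around H1FX it was 0.15, as over 662 genes of chromosome 3, around H2AFX 0.20 and around H1F0 0.23, close to the 0.20 of H1F0 itself. Around H2AFZ it was -0.15, around H3F3B 0.12 and around H3F3A 0.18, each opposite in sign to the gene's own value.

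Few genes that make or process replication-dependent histone mRNA were called. Of 17 such genes listed and tested, 3 were higher, a share near that of all tested genes, 0 were lower and 14 did not pass, with a median log2 fold change of 0.00. SLBP, the stem-loop binding protein, averaged 87.8 ± 0.414 CPM in shRB cells and 70.4 ± 6.58 CPM in shCON cells (SD, n = 3 each, log2 fold change 0.31 ± 0.08, edgeR adjusted p = 0.016). NCBP1, a subunit of the nuclear cap-binding complex, averaged 130 ± 7.68 CPM in shRB and 100.3 ± 1.90 CPM in shCON (log2 fold change 0.38 ± 0.08, edgeR adjusted p = 0.0025). ZNF473, a zinc-finger protein of the U7-dependent processing machinery, averaged 16.9 ± 2.20 CPM in shRB and 12.9 ± 0.865 CPM in shCON (log2 fold change 0.41 ± 0.13, edgeR adjusted p = 0.038). NPAT, the coactivator of histone gene transcription in S phase, averaged 18.7 ± 3.22 CPM in shRB and 18.6 ± 1.45 CPM in shCON, and its log2 fold change of 0.00 ± 0.14 did not pass (edgeR adjusted p = 1). With an offset for GC content 6 of the 17 were higher, and without shCON 2 or shCON 3 only 1 was.

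Several histone chaperones and deposition factors were higher in shRB cells. Of 26 listed genes with a row in the count table, 25 were tested. Among the 25, 8 were higher, where 12.8% of all tested genes were, 1 was lower and 16 did not pass. The median log2 fold change was 0.07, and the untested ANP32E was at 0 in every library. Among the H3-H4 chaperones, NASP (0.16, edgeR adjusted p = 0.11), RBBP4 (0.02, edgeR adjusted p = 0.87) and ASF1A (-0.27, edgeR adjusted p = 0.13) did not pass. MCM2, a helicase subunit that also binds histones, averaged 224 ± 15.5 CPM in shRB cells and 124 ± 0.655 CPM in shCON cells (SD, n = 3 each, log2 fold change 0.85 ± 0.07, edgeR adjusted p = 3.2e-06). CHAF1A, the large subunit of CAF-1, averaged 52.9 ± 1.02 CPM in shRB and 33.8 ± 1.49 CPM in shCON (log2 fold change 0.64 ± 0.09, edgeR adjusted p = 0.00015). ASF1B, which hands H3-H4 to CAF-1, averaged 51.8 ± 7.44 CPM in shRB and 31.0 ± 1.94 CPM in shCON (log2 fold change 0.74 ± 0.11, edgeR adjusted p = 0.00035). RBBP7, a histone-binding subunit of several chromatin complexes, had a log2 fold change of 0.47 ± 0.07 (edgeR adjusted p = 2e-04), and HJURP, the chaperone of the centromeric H3 variant, one of 0.61 ± 0.10 (edgeR adjusted p = 0.00069). VPS72, which binds H2A.Z in its deposition complexes, averaged 113 ± 8.29 CPM in shRB and 88.6 ± 2.95 CPM in shCON (log2 fold change 0.35 ± 0.08, edgeR adjusted p = 0.0057). EP400, the ATPase of a complex that deposits H2A.Z, was the 1 lower gene, at -0.30 ± 0.10 (edgeR adjusted p = 0.048), a call lost under DESeq2 and without shRB 1 or any 1 shCON library.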

How the data were processed

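RNA-seq libraries of 6 LNCaP samples, 3 shRB and 3 shCON, were analysed. The authors deposited whole-number read counts per transcript ID, not normalized. The submitters' processing notes list STAR, HOMER, edgeR and hg19. Which annotation and counting options were used, and whether strand was, is not given in the sources used here. Of 22279 IDs, 22182 matched GENCODE release 29, which was used for names, gene order, transcript sequence and length, and not for coordinates. Genes of the lists without a row were not analysed here.

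Counts were filtered with edgeR 4.0.16 in R 4.3.3 (filterByExpr, minimum count 10, minimum total 15), scaled by TMM and tested with the quasi-likelihood F test, with a single term for group. Benjamini-Hochberg adjustment ran over all 11712 tested genes, and a gene was called at an adjusted p under 0.05. The SE of a log2 fold change is its size over the square root of F. Sharing between genes was counted over all 50-base stretches of the GENCODE transcripts. The scripts were checked on simulated counts. The chi-square of replicate pairs, divided by its degrees of freedom, was 2.25 to 11.3, so none was a duplicate. The histone genes, the 2 gene lists and the tests were chosen with earlier results of these data known. The text names RB1, each tested histone gene, the 5 untested ones with the highest totals, SLBP and NPAT, and up to 6 called genes of each list with the smallest p. Other untested members, EP400, NASP, RBBP4 and ASF1A were named after their values were seen. Alternatives were DESeq2 1.42.0, limma-voom (limma 3.58.1), other scalings, other filters and thresholds, a replicate block, a GC offset and leaving out each library.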

Additional observations from a re-analysis of the deposited data

How the results depend on the processing

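No tested histone gene changed sign under the 17 or 18 alternative settings that gave it a value, and the counts of histone genes called stayed within 1.5 times the reported ones. HIST1H2BD, HIST2H2BE, HIST1H4H, H1FX, H2AFJ, H2AFX, H2AFY2, H2AFZ and H3F3B kept their call in all 18. At an adjusted p under 0.01, 787 genes were higher and 793 lower among all genes, 1 processing gene was higher and 0 chaperone genes were lower. The lower chaperone count of 1 became 0 under DESeq2 and 3 with no filter. With the GC offset, 2714 genes were higher, 6 processing genes were higher and 2 chaperone genes were lower. Leaving out 1 library gave 863 to 2074 higher and 912 to 1956 lower genes, 1 to 4 higher processing genes and 0 to 1 lower chaperone genes. The fewest were without shCON 1, and without shCON 3 the counts were 969 higher and 964 lower. The labels number the replicates but do not say that the numbers pair the samples. Deviations of libraries with the same number correlated across genes at 0.24, 0.35 and 0.00 for replicates 1 to 3. Whether replicates 1 and 2 share an effect across the groups was not tested. With the replicate block, 2202 genes were higher and 2294 lower, 6 processing genes higher and 3 chaperone genes lower. With the block and the GC offset, 2869 genes were higher, 6 processing genes higher and 2 chaperone genes lower. The cause of these shifts was not tested. With the GC offset 16 histone genes were called, against 11, the additional ones being HIST1H1C, HIST1H2AI, H1F0, H2AFV and H3F3A. The 22 untested histone genes, at 9 counts or fewer per library, give no readable change.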
